A study of Mus musculus with 6 samples.

Results

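The genes of the proteasome and of the Vcp segregase were examined in the cerebral cortex of senescence-accelerated mice. Members were the probe sets whose gene symbol begins with Psm, a letter from a to g and a digit, with 1 subunit gene left out, together with those of *Vcp* and of its cofactors *Ufd1l*, *Nploc4* and *Nsfl1c*. This rule used names only and gave 107 of 45077 probe sets, which stand for 52 of 22527 gene symbol entries. A probe set, the unit of these Affymetrix mouse array strips, pools several short oligonucleotides designed for a transcript, and some probe sets list more than 1 gene symbol. Each *Vcp* probe set was read separately, and every other gene was read from its brightest probe set, the one with the highest mean signal over the 3 groups.

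The groups were SAMR1 + Water, SAMP8 + Water and SAMP8 + STEE, with 2 male mice in each, aged 16 weeks according to the labels. The methods place acclimatization, dosing and behavioral tests before the brains were taken. If 16 weeks was the age at the start, the cortex came from older mice. SAMP8 is a strain with accelerated senescence, and SAMR1 is the related strain that resists it and served as the normally aging control. STEE is an ethanolic extract of sugarcane tops that was given by mouth at 20 mg/kg for 30 days and then through 8 days of behavioral tests, while both water groups received the same volume of water. The mice were housed singly, and the methods also describe the label BrdU in their drinking water. For each group only the authors' mean of the RMA-processed log2 signal was used, so that neither a standard deviation nor a test between mice could be given, and every difference is described by its size alone. A log2 difference of at least 0.2, a fold of 1.15, was used as the mark for counting. Bulk cortex was measured, in which less RNA per cell and fewer cells of a type cannot be told apart.

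The proteasome is the chief protease of the cytosol and nucleus for proteins tagged with ubiquitin. Its barrel, the 20S core, is built of alpha rings that gate the entrance and beta rings that cut, and the 19S cap recognises ubiquitin, removes it and threads the substrate in with a ring of ATPases. Vcp, an AAA ATPase, pulls ubiquitin-tagged proteins out of membranes and complexes and passes them on for degradation, guided by the Ufd1-Npl4 pair or by the p47 cofactor (*Nsfl1c*). In neurons, which cannot dilute damaged proteins by dividing, both machines are known for protein quality control and for the turnover of synaptic proteins.

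Transcription factors known to act on proteasome genes include Nfe2l1 and Nfe2l2, which bind antioxidant response elements, and NF-Y, which binds CCAAT boxes. The stretches printed here are the 120 bases before the annotated transcript start, in RefSeq sequence of GRCm38.p6 read 5′ to 3′ along the gene. They belong to *Psmb5*, the gene of a catalytic subunit, to *Vcp* and to *Psmd8*, *Psmd9* and *Psmd10*. The last 3 were the members furthest apart between the strains at their brightest probe sets. Capitals mark matches of CCAAT or TGACNNNGC on either strand, so that ATTGG is CCAAT on the other strand.
Psmb5 (chr14:54617996-54618115, minus strand): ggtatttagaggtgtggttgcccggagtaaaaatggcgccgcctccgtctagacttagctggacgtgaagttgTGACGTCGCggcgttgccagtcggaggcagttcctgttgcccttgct
Psmd8 (chr7:29180674-29180793, minus strand): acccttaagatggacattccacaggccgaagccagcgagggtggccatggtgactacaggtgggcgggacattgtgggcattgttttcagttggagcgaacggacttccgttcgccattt
Psmd9 (chr5:123228070-123228189, plus strand): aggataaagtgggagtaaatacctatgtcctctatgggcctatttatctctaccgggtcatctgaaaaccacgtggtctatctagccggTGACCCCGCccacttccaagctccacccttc
Psmd10 (chrX:140956712-140956831, minus strand): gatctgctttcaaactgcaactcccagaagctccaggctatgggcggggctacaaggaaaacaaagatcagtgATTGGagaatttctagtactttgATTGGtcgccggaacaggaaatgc
Vcp (chr4:43000508-43000627, minus strand): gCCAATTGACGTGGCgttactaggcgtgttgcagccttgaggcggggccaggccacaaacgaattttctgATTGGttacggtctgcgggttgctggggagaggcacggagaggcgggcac

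In *Psmb5* and *Psmd9* the marked match was TGACNNNGC, beginning 47 and 31 bases before the start. That of *Psmd10* held CCAAT on the opposite strand at 47 and 24 bases before the start. The printed stretch of *Vcp* held a CCAAT directly followed by TGACNNNGC at 119 and 114 bases before its start and another CCAAT on the opposite strand at 50 bases. The printed stretch of *Psmd8* held neither set of letters. RefSeq promoters of 300 bases were found for 44 of the 52 members, *Ufd1l* under its present symbol *Ufd1*; *Psma8*, *Psmb1*, *Psmb2*, *Psmb7*, *Psmc3*, *Psmd3*, *Psmd7* and *Psmg2* had no entry. Over these windows, CCAAT occurred in 17 of 44 members (38.6%), against 41.1% of all 27025 genes with a promoter, and TGACNNNGC in 7 of 44 (15.9%), against 14.0%. These letters were thus about as frequent before proteasome genes as before other genes.

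No member differed by more than 0.23 between the strains at its brightest probe set, but the typical member moved about as much as the typical gene. The median absolute difference was 0.075 for the members and 0.07 for all genes. Within 0.1 of 0 lay 30 of the members (57.7%) and 60.5% of all genes. In the difference SAMP8 control minus SAMR1, 3 of 52 members were higher by at least 0.2, against 6.45% of all genes, and 0 of 52 were lower by that much, against 6.14%. Rounding of up to 0.01 could alter these counts, as *Psmd9* and *Psmd10* stood at 0.20 and *Psmb3* at -0.19. The median of the members' log2 differences was 0.045, from -0.19 for *Psmb3* to 0.23 for *Psmd8*, and that of all genes was 0.00. Values above 0 were found for 33 of the members (63.5%) and for 47.1% of all genes. Among genes with a mean log2 signal of at least 8 the median was 0.05 for 25 members and 0.02 for all 2753 genes; 1 of the 25 was higher by at least 0.2, against 8.61% of such genes, and 0 were lower, against 4.47%.

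With STEE the members' differences were smaller than between the strains, and about as small as those of bright genes in general. The median absolute difference was 0.04 for the members, 0.04 for all genes of mean signal at least 8 and 0.06 for all genes. In STEE-fed SAMP8 minus SAMP8 control, 0 of 52 members were higher by 0.2 or more, against 3.05% of all genes, and 0 of 52 were lower, against 2.67%. Their median was 0.015, from -0.16 for *Psmg4* to 0.17 for *Psmg2*, and 43 members (82.7%) lay within 0.1 of 0, as did 71.2% of all genes. At a mean signal of at least 8, 0 of 25 members passed the mark in either direction, against 1.24% of genes higher and 0.872% lower.

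Several marker lists of other cell types and regions had strain differences wider than those of the members. These were chiefly the striatal, thalamic and oligodendrocyte lists and the mostly dim hippocampal list, and others, such as blood, did not. Cortical neurons were plainly present, with *Snap25* at 11.38 to 11.58 and *Tbr1* at 8.12 to 8.57. Of the striatal genes 6 of 6 passed the mark upward in SAMP8 control, by 0.32 to 0.89, and their mean log2 signal was 7.15 in SAMR1, 7.76 in SAMP8 control and 7.82 with STEE. The oligodendrocyte list, 9.71, 9.40 and 9.40 on average, had 5 of 7 genes past the mark downward, with differences from -0.63 to -0.07. The thalamic list was 6.08, 5.50 and 5.55, with 4 of 5 genes past the mark and differences from -0.97 to -0.14, and the hippocampal list 3.93, 3.61 and 3.55, with 3 of 5. Apart from *C1ql2*, with 4.61 to 4.99, the hippocampal genes read only 3.12 to 3.86, dimmer than a typical probe set at 4.15 to 4.16. Little can be read from the differences of these dim genes. Choroid plexus genes had 2 of 6 past the mark downward between the strains, *Ttr* at -1.96 and the dim *Otx2* at -0.32. *Ttr* differed by 1.09 with STEE, but the median of the list was 0.01 and its other genes ran from -0.09 to 0.02. Interneuron genes had 3 of 5 past it upward, astrocyte and endothelial genes 1 in each direction, microglial genes 1 of 7 downward, blood genes 0 of 6, and cortical neuron genes 1 upward and 2 downward. With STEE all 6 cortical neuron genes had values above 0, with a median of 0.155 and 2 past the mark, *Tbr1* at 0.29 and *Cux2* at 0.30. The STEE medians of the striatal, oligodendrocyte, thalamic and hippocampal lists were 0.07, -0.01, -0.03 and -0.07. The lowest signal of a listed marker gene was 2.55, for *Otx2* of the choroid plexus list in SAMP8 control, where the median of all probe sets was 4.15. The part of these lists in the members' differences was not tested.

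STEE-fed SAMP8 was also set beside SAMR1, a difference that is the sum of the other two and adds no independent measurement. Here 8 of 52 members were higher by at least 0.2, against 8.19% of all genes, and 1 was lower, against 6.01%. The 8 were *Psmd10* (0.29), *Psma1* (0.24), *Psmb2* (0.23), *Psmd8* (0.22), *Psmd2*, *Psmd9* and *Psmd12* (0.21 each) and *Psmg2* (0.20), and the lower one was *Psmg4* (-0.26). Over all 52 members the share of higher ones was thus above that of all genes, a difference that was not tested. At a mean signal of at least 8, 3 of 25 members were higher, against 11.8% of such genes, and 0 lower, against 5.45%. Among bright genes the members' share of higher values was therefore near the background.

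**Figure D1:**
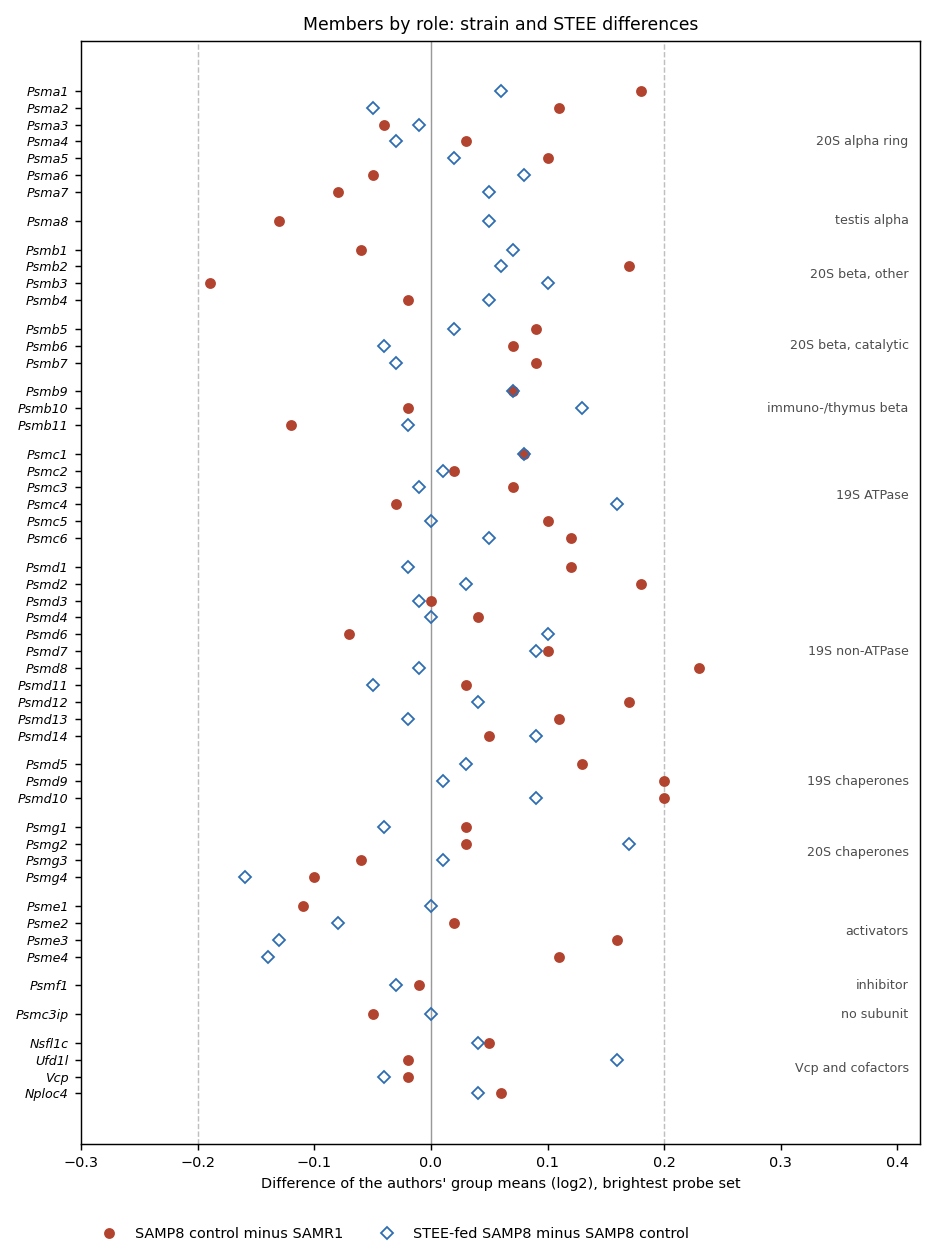
Difference of the authors' group means on the log2 scale (x axis) for the 52 members, grouped by role (y axis); filled circles are SAMP8 control minus SAMR1, open diamonds STEE-fed SAMP8 minus SAMP8 control, and dashed lines mark -0.2 and 0.2. *Psmd8*, *Psmd9* and *Psmd10* reach the right-hand line between the strains, and no diamond reaches either line; there are no error bars because only group means were used.

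**Figure D2:**
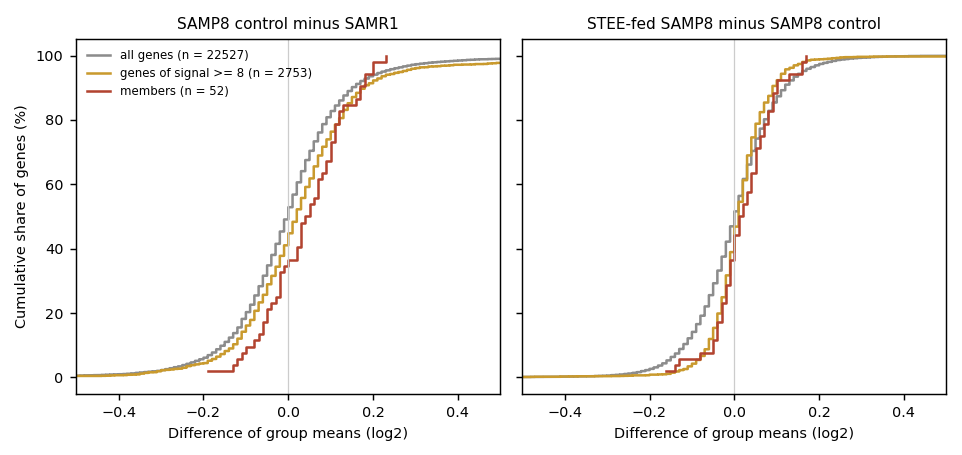
Cumulative share of genes in percent (y axis) against the difference of group means on the log2 scale (x axis, shown from -0.5 to 0.5) for all 22527 genes, the 2753 genes of mean log2 signal at least 8 and the 52 members. The members' curve lies to the right of both others around 0 between the strains (left) and near the curve of bright genes with STEE (right).

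The catalytic beta subunits of the constitutive core spanned no more than 0.11 log2 units across the groups. *Psmb5*, which carries the chymotrypsin-like activity, had a group mean log2 signal in the authors' tables of 8.31 in SAMR1, 8.40 in SAMP8 control and 8.42 with STEE. *Psmb6*, the caspase-like subunit, stood at 8.03, 8.10 and 8.06, and *Psmb7*, the trypsin-like subunit, at 8.64, 8.73 and 8.70 in the same order. Relative to SAMR1, all 3 were thus higher in SAMP8 control by 0.07 to 0.09, and they differed with STEE by -0.04 to 0.02.

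The other beta subunits were spread more widely. *Psmb2* was 7.67 in SAMR1, 7.84 in SAMP8 control and 7.90 with STEE, and *Psmb3* was 8.06, 7.87 and 7.97. *Psmb1* and *Psmb4* differed by -0.06 and -0.02 between the strains. With STEE all 4 of these subunits had values above 0, from 0.05 to 0.10.

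In the alpha ring, whose tails form the gate of the barrel, 4 of 7 members were higher and 3 lower in SAMP8 control than in SAMR1 mice, with a median of 0.03. *Psma1* stood furthest apart, at 8.38 in SAMR1, 8.56 in SAMP8 control and 8.62 with STEE. *Psma7* was the lowest, with a difference of -0.08 between the strains and 0.05 with STEE. The 7 differences with STEE ran from -0.05 for *Psma2* to 0.08 for *Psma6*. *Psma8*, the form of an alpha subunit known from testis, had a signal of 2.83, 2.70 and 2.75, below the array's median of 4.16 in SAMR1 and 4.15 in both SAMP8 groups.

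Among the catalytic subunits that replace the constitutive ones in immune cells and thymus, *Psmb10* had a mean log2 signal of 7.36 in SAMR1, 7.34 in SAMP8 control and 7.47 with STEE, a difference of 0.13 with the extract. *Psmb9*, known to be induced by interferon gamma, was at 3.51, 3.58 and 3.65, and the thymus form *Psmb11* at 3.04, 2.92 and 2.90. The last 2 genes had signals below the array's median in all groups, so that little can be read from their differences.

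Of the 17 subunit genes of the 19S cap, 14 (82.4%) had values above 0 in the strain difference, 2 below and 1 at 0, with a median of 0.08. Values above 0 were found for 47.1% of all genes and 55.2% of genes with a mean signal of at least 8, and only *Psmd8* of the 17 passed the mark. Of the 6 ATPases, which unfold the substrate, 5 were above 0, up to 0.12 for *Psmc6*, which read 7.84 in SAMR1, 7.96 in SAMP8 control and 8.01 with STEE. *Psmc4* was the exception, with 9.05, 9.02 and 9.18. Its difference of 0.16 with STEE was the highest among the 31 constitutive subunits at their brightest probe sets, but its second probe set gave 0.05. The remaining ATPases differed with STEE by -0.01 to 0.08 at their brightest probe sets.

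*Psmd8*, a lid subunit needed to complete the cap, gave the widest strain difference of any member at its brightest probe set, with 8.10 in SAMR1, 8.33 in SAMP8 control and 8.32 with STEE. *Psmd2*, a scaffold of the base that docks ubiquitin-binding proteins, was 8.04, 8.22 and 8.25, and *Psmd12*, a lid subunit, was 7.68, 7.85 and 7.89. *Psmd14*, the deubiquitinase of the lid, read 9.12, 9.17 and 9.26. For these 4 genes the SAMR1 mean was the lowest of the 3 groups. *Psmd6* was the only subunit among the 11 non-ATPases below 0 between the strains, at -0.07, and *Psmd3* was at 0.00. With STEE, 5 of the 11 were above 0, 5 below and 1 at 0, with *Psmd11* lowest at -0.05.

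The chaperones that assemble the base of the cap were all higher in SAMP8 control at their brightest probe sets. *Psmd10*, also known as gankyrin, was 5.75 in SAMR1, 5.95 in SAMP8 control and 6.04 with STEE. *Psmd5* read 6.46, 6.59 and 6.62. *Psmd9* was 4.47, 4.67 and 4.68 at its brightest probe set, but at its next probe set it was 4.29, 4.02 and 4.06. The strain difference was 0.20 by the former, -0.27 by the latter and -0.08 by its dimmest probe set, so that its direction depended on the probe set.

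Of the chaperones of the 20S core, *Psmg2* had the highest difference with STEE of all members at the brightest probe set. It read 6.85 in SAMR1, 6.88 in SAMP8 control and 7.05 with STEE. That probe set also lists a second symbol, LOC101056547, and its signal cannot be assigned to 1 of them. The next *Psmg2* probe set, which lists the same symbols, read 6.07, 6.31 and 6.41. It differed by 0.24 between the strains and by 0.10 with STEE, so that the pattern of *Psmg2* depended on the probe set. *Psmg4* had the lowest difference with STEE at the brightest probe set, with 4.90, 4.80 and 4.64. *Psmg1*, the partner of *Psmg2*, differed by 0.03 between the strains and by -0.04 with STEE, and *Psmg3*, the partner of *Psmg4*, by -0.06 and 0.01.

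The activators, rings or caps that open the core without ubiquitin, had no value above 0 with STEE. *Psme4*, which encodes PA200, was 7.96 in SAMR1, 8.07 in SAMP8 control and 7.93 with STEE, a difference of -0.14 with the extract. *Psme3*, the nuclear PA28 gamma, read 5.93, 6.09 and 5.96, a difference of -0.13, and its next probe set of 4.43, 4.57 and 4.69 differed by 0.12 instead. *Psme2* was at -0.08 and *Psme1* at 0.00, with -0.11 for *Psme1* between the strains. *Psmf1*, an inhibitor of the core in vitro, was within 0.03 of 0 in both comparisons. *Psmc3ip*, which the name rule takes in although it encodes a partner in meiotic recombination and no subunit, was 4.77, 4.72 and 4.72.

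Probe sets of the same gene, which share the mice and differ in the probes, gave a measure of how well such differences repeat. Of the 52 members, 28 had more than 1 probe set, and for 22 of them probe sets lay on both sides of 0 between the strains. That count took in dim probe sets, and the same count over all genes was not made. For 11 members the 2 brightest probe sets both reached a mean log2 signal of 7. Their strain differences were apart by a median of 0.13, from 0.05 for *Psma5* to 0.53 for *Psmb3*, and their STEE differences by a median of 0.06, up to 0.16. Across all 1708 genes with such a pair the medians were 0.08 and 0.04.

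The pair of *Psmb3* lay furthest apart: its brightest probe set read 8.06 in SAMR1, 7.87 in SAMP8 control and 7.97 with STEE, and the next one 7.35, 7.69 and 7.63, so that the strain difference was -0.19 by the former and 0.34 by the latter. The second probe set gave the higher strain difference in 9 of the 11 members, and in 55.5% of the 1708 genes. For *Psma6*, *Psma7*, *Psmb4*, *Psmc4* and *Psmd6* it turned a value below 0 into one above 0. *Psmc6* went the other way between the strains, 0.12 against -0.01, while all 3 of its probe sets were higher with STEE, by 0.05, 0.20 and 0.28.

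**Figure D3:**
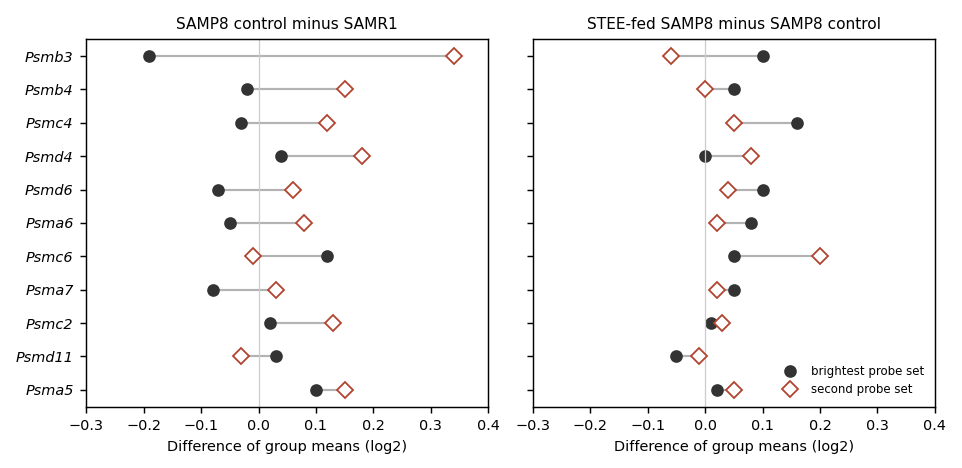
Differences of group means on the log2 scale (x axis) for the 11 members (y axis) whose 2 brightest probe sets both reach a mean signal of 7, ordered by the distance between them in the strain comparison; filled circles are the brightest and open diamonds the second probe set. In the left panel the diamonds lie to the right of the circles for 9 of 11 genes, with *Psmb3* furthest apart at -0.19 and 0.34.

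Counted singly, 8 of the 107 probe sets were higher and 6 lower by at least 0.2 between the strains, against 7.46% and 6.25% of all probe sets with a gene symbol, and so near the background. All 6 lower ones had a mean signal under 5, among them a probe set of *Psma3* with 4.99 in SAMR1 and 4.61 in SAMP8 control, while its brightest read 8.98 and 8.94. With STEE, 4 probe sets were higher, those of *Psmc6* with 0.20 and 0.28 and dim ones of *Psma1* and *Psme4* with 0.20 each, against 3.18% of all, and 1 was lower, against 2.79%, a *Psme4* probe set with 6.20 in SAMR1, 6.42 in SAMP8 control and 6.16 with STEE. The 6 *Psme4* probe sets ran from -0.26 to 0.20 with STEE.

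*Vcp* held the widest difference of all member probe sets, and at 1 of its 2 probe sets only. Probe set 1457588_PM_at had a mean log2 signal of 4.96 in SAMR1, 2.89 in SAMP8 control and 2.91 with STEE. Both SAMP8 groups were thus low and close to each other. The difference of these means, SAMP8 control minus SAMR1, was -2.07, and its size is limited by the low SAMP8 signals, which lay below the median of all probe sets and cannot be told from background here. Probe set 1423030_PM_at read 9.50, 9.48 and 9.44, a strain difference of -0.02. With STEE the 2 probe sets differed by 0.02 and -0.04.

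In SAMR1 the signal of 1457588_PM_at was above that of 61.6% of all probe sets, and in SAMP8 control above that of 13.9%. With that floor in one strain, its difference has no exact rank, and 9 of 45077 probe sets, itself included, had a value as low or lower. The bright probe set lay above 97.9% of all probe sets in SAMP8 control. The array design assigns the dim and the bright probe set to different transcript clusters. Which part of the gene the dim one reads was not analysed here. Of 10574 genes with more than 1 probe set, 8 had a probe set lower by at least 1 in SAMP8 control while their brightest lay within 0.1 of 0, *Vcp* among them.

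**Figure D4:**
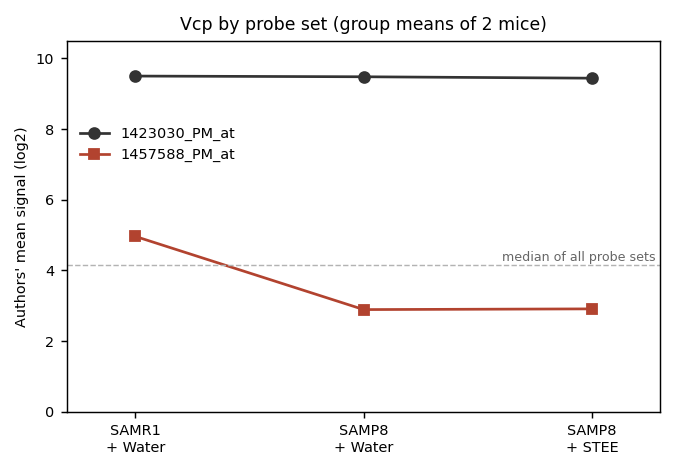
Authors' mean log2 signal (y axis, from 0) of both *Vcp* probe sets in the 3 groups (x axis); each point is a mean over 2 mice, and the dashed line is the median of all probe sets. The bright probe set is flat between 9.44 and 9.50, and the dim one drops from 4.96 in SAMR1 to 2.89 and 2.91 in the SAMP8 groups.

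Neighbours of *Vcp* in RefSeq's gene order on GRCm38.p6 were read in the same way. *Fancg*, the next protein-coding gene, was 4.97 in SAMR1 and 4.88 in SAMP8 control. *Pigo*, an enzyme of GPI anchor synthesis and the gene after that, read 4.82 in SAMR1, 6.59 in SAMP8 control and 6.70 with STEE at its brightest probe set, a strain difference of 1.77, while its 3 probe sets ran from -0.04 to 1.77. *Stoml2* differed by -0.03. On the other side *Dnajb5*, a co-chaperone of the Hsp40 family, differed by 0.41 with its 3 probe sets from 0.22 to 0.68, and *Fam205a1* by 1.17. *Fam214b* and *Phf24* differed by -0.29 and 0.30. At the brightest probe set *Pigo*, *Dnajb5*, *Fam205a1* and *Phf24* were thus higher and *Fam214b* lower by at least 0.2, all within 5 protein-coding genes of *Vcp*. Of all genes, 6.45% were higher and 6.14% lower by that much. Whether the neighbours differ from other genes as a set was not tested, and 3 of the 12 nearest had no probe set.

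The cofactors of Vcp showed no such difference. *Ufd1l* was 7.19 in SAMR1, 7.17 in SAMP8 control and 7.33 with STEE, and its second probe set 6.08, 6.22 and 6.36, so that both were higher with STEE, by 0.16 and 0.14. *Nploc4*, its partner, read 6.14, 6.20 and 6.24. *Nsfl1c* read 7.84, 7.89 and 7.93. Each of the last 2 differed by 0.04 to 0.06 from 1 group to the next.

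Further genes of the pathway were taken from lists of proteasome-associated proteins, regulators, ubiquitin and E1 enzymes, shuttle factors, other Vcp cofactors, ER-associated degradation and deubiquitinases and ligases; 68 of 71 listed symbols were on the array. Between the strains 4 of 68 were higher and 1 lower by at least 0.2, against 6.45% and 6.14% of all genes, and with STEE 0 were higher and 2 lower, against 3.05% and 2.67%. All 4 counts were near or under the background, and the genes named next are given as single values only. *Nfya*, a subunit of NF-Y, was 5.02 in SAMR1, 5.25 in SAMP8 control and 4.96 with STEE. *Ubxn7*, an adaptor that links Vcp to ubiquitin ligases, had the same shape, with 5.22, 5.56 and 5.27.

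*Ubxn2b*, a relative of p47, was 5.28, 5.72 and 5.86, the widest strain difference of these lists at 0.44. *Derl2* and *Sel1l*, of the ER-associated degradation complex, were higher by 0.20 and 0.19, and *Park2*, the ligase parkin, differed by -0.23. For STEE-fed SAMP8 minus SAMR1, 3 of 68 were higher, against 8.19% of all genes, *Ubxn2b* by 0.58, *Derl2* by 0.24 and *Sel1l* by 0.20, and 2 were lower, against 6.01%, *Ubxn4* at -0.20 and *Zfand2b* at -0.24, which both bind Vcp. *Nfe2l1*, which drives the bounce-back of proteasome genes when the protease is blocked, read 8.86, 8.76 and 8.75, and *Nfe2l2* 5.54, 5.69 and 5.59. The ubiquitin and E1 genes stayed within 0.13 of 0 between the strains and within 0.06 with STEE.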

How the data were processed

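Cortical RNA of 6 mice, 2 in each of 3 groups, was measured on Affymetrix mouse array strips. The authors summarised the arrays with RMA in Expression Console and averaged each group in Transcriptome Analysis Console, and they deposited 2 tables of group means as log2 signal with 2 decimals, named bi-weight averages. The SAMP8 control means were identical in both tables, so levels were compared across them. The tables also hold the authors' fold changes, ANOVA p-values and FDR p-values for each comparison, which were not used. Depth does not apply to arrays; the number of mice limits the precision.

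Groups came from the sample titles. Differences of the deposited log2 means were computed with Python 3.11.15 and pandas 2.3.3, and each carries a rounding error of up to 0.01. No test was possible from means alone. Gene symbol entries were split, and each gene was read from its brightest probe set. The mark of 0.2 counted members beside all 22527 genes. Members, gene lists and the rule for named genes (every *Vcp* probe set, catalytic subunits, members past the mark and the 5 highest and 5 lowest in each difference) were chosen with earlier results of these data known. Counting was tested on simulated data. Alternatives covered the probe set per gene, a signal filter, centring, membership and the mark. Promoter sequences and gene order were taken from RefSeq, GRCm38.p6.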

Additional observations from a re-analysis of the deposited data

How the results depend on the processing

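Of 75 values computed under other settings, 49 stayed close to those reported, within 0.01 for a median and within 1.5 times for a count, 26 moved, and none of the medians changed sign. The median strain difference of the members, 0.045, was 0.065 with the brightest unshared probe set (1 symbol, name not ending in _x_at or _s_at), 0.03 with every probe set counted and, in a setting chosen after seeing the data, 0.06 with the mean over probe sets of signal at least 7. For STEE-fed SAMP8 minus SAMR1, 0.06 became 0.08, 0.03 and 0.09 in the same order. With every probe set counted, 8 were higher and 6 lower between the strains (7.46% and 6.25% of all probe sets), 4 and 1 with STEE (3.18% and 2.79%), and 15 and 5 for STEE-fed SAMP8 minus SAMR1 (9.20% and 6.16%). A mark of 0.1 gave 17 higher and 5 lower members between the strains, where 19.2% and 20.3% of all genes passed, 6 and 3 with STEE, where 14.6% and 14.2% did, and 22 and 3 for STEE-fed SAMP8 minus SAMR1, where 20.0% and 20.9% did; a mark of 0.3 gave 0 in each. Averaging all probe sets of a gene gave 2 lower members between the strains and 2 for STEE-fed SAMP8 minus SAMR1. Both times these were *Vcp* and *Psma3*, whose dimmer probe sets stood at -2.07 and -0.38 between the strains. At a mean signal of at least 8, 1 member was higher between the strains, and 3 were higher and 0 lower for STEE-fed SAMP8 minus SAMR1. Every other value, centring and restriction to proteasome genes included, was close to that reported; the causes of these shifts were not tested, apart from the number of probe sets or genes counted. The groups were separate mice, so that a paired analysis does not apply. No mouse could be left out because only group means were used.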
